A study of Homo sapiens with 14 samples.

Results

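The response of untransfected LNCaP cells to TSA was measured on 4 of the 14 expression arrays of a study on EZH2, the methyltransferase of Polycomb repressive complex 2. All arrays with these labels were taken, 2 of cells given 5 µM TSA for 24 h and 2 of cells given 0.1% DMSO, the solvent, for 24 h. LNCaP is an established human prostate cancer line, grown from a lymph node metastasis, with a luminal, androgen-dependent character. A further pair of arrays from the same drug experiment held cells given 10 µM Roscovitine, an inhibitor of cyclin-dependent kinases, for 24 h. The remaining 8 arrays held LNCaP cells 60 h after transfection, 2 each of si-Control, si-EZH2 (the EZH2 knockdown), si-EZH2&EZH2sr and si-EZH2&T350Asr. In the last 2 groups the knockdown was combined with EZH2 that resists the siRNA, normal or mutated at the threonine the study is about. Drug-treated cells were not transfected, and TSA was used in 1 line at 1 dose and 1 time. No label says that replicate arrays stem from different cultures, so all p-values measure the spread between these arrays, which may be technical.

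TSA is trichostatin A, which blocks the catalytic zinc of class I and class II histone deacetylases. Histone deacetylases (HDACs) remove acetyl groups from histone tails and from many other proteins, and they act largely inside corepressor complexes such as NuRD, Sin3, CoREST and NCoR. When they are blocked, acetylated histones accumulate genome-wide, silent genes can be transcribed, and many highly transcribed genes lose transcripts at the same time. In prostate cancer cells HDAC inhibitors are known to lower androgen receptor signalling and to halt the cell cycle.

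Levels are probe-set signals on a linear scale, and each gene is represented by the probe set with the highest mean signal over all arrays. Differences are log2(signal + 16) of TSA minus DMSO, fitted with limma across 19775 genes, and a gene was called when its Benjamini-Hochberg adjusted p was under 0.05. Values after ± are standard errors of the fit, with n = 2 arrays in each group. Adding 16 to every signal understates the change of genes with low signals. The median signal over probe sets lay between 107.3 and 117.03 on all 14 arrays, and between 111.3 and 116.9 on the 4 arrays compared. Replicate arrays differed with an SD over genes of 0.16 on the log2 scale for DMSO and 0.18 for TSA. It was larger for Roscovitine (0.24) and for si-EZH2&T350Asr (0.26), and the deviations of these same-numbered pairs correlated at 0.77 over 9888 genes, so results that rest on the Roscovitine arrays are given with and without replicate 2. Of 7 basal prostate markers NGFR was called, at 15.2 and 6.99 with DMSO and 178 and 146 with TSA, and a second one only without DMSO replicate 1 or without 1 si-EZH2&EZH2sr array. Summed signals of the marker lists were 295 to 311 with DMSO and 475 to 487 with TSA for basal cells, 934 to 976 with DMSO and 876 to 912 with TSA for 9 leukocyte markers and 2751 to 2793 with DMSO and 3050.5 to 3144 with TSA for 13 fibroblast and endothelial markers. Against these stood 41132 to 42869 with DMSO and 20445 to 21333 with TSA for 8 luminal markers, the markers of the labelled cell type. PTPRC, a leukocyte marker, was lower (-0.62), and of the fibroblast and endothelial markers COL1A1 was higher (1.49) and VWF (-0.70) and COL3A1 (-0.78) lower. Signals were under 50 on all 4 arrays for 3 of the 7 basal, 3 of the 9 leukocyte and 4 of the 13 fibroblast and endothelial markers. The part of these markers in the results was not tested. CD3D and CD14 of the leukocyte, PDGFRB of the fibroblast and endothelial and KRT15 of the basal markers were near 0 with both treatments. Most members of each list had a signal of 50 or above on at least 1 of the 4 arrays. The members near 0 were picked from the lists, so they do not show that other cell types were absent.

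TSA changed the level of 8331 genes, 42.1% of those tested: 4084 (20.7%) were higher and 4247 (21.5%) were lower than with DMSO. Counts of called members in the gene lists below are to be read against these shares. The shares varied with the signal of a gene, and the lists were not matched for signal. In bulk RNA, fewer cells of a type or phase and less RNA per cell cannot be told apart. Roscovitine, tested against the same DMSO arrays in the same fit, gave 111 higher genes (0.561%) and 438 lower genes (2.21%). Without Roscovitine replicate 2 these were 10 and 73, and without replicate 1 they were 68 and 172; the lone array is then assumed to vary like the other groups. Changes of more than 1 on the log2 scale were called for 1285 genes upward (6.5%) and 1383 downward (6.99%). The difference over all genes had a median of 0.01 and quartiles of -0.30 and 0.32. Both TSA arrays lay above both DMSO arrays for 7118 genes (36%) and below them for 6859 (34.7%). Each call rests on 1 probe set of a gene. Of 5215 called genes with further probe sets, 3589 had the same sign on all of them, whether or not these were called.

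**Figure D1:**
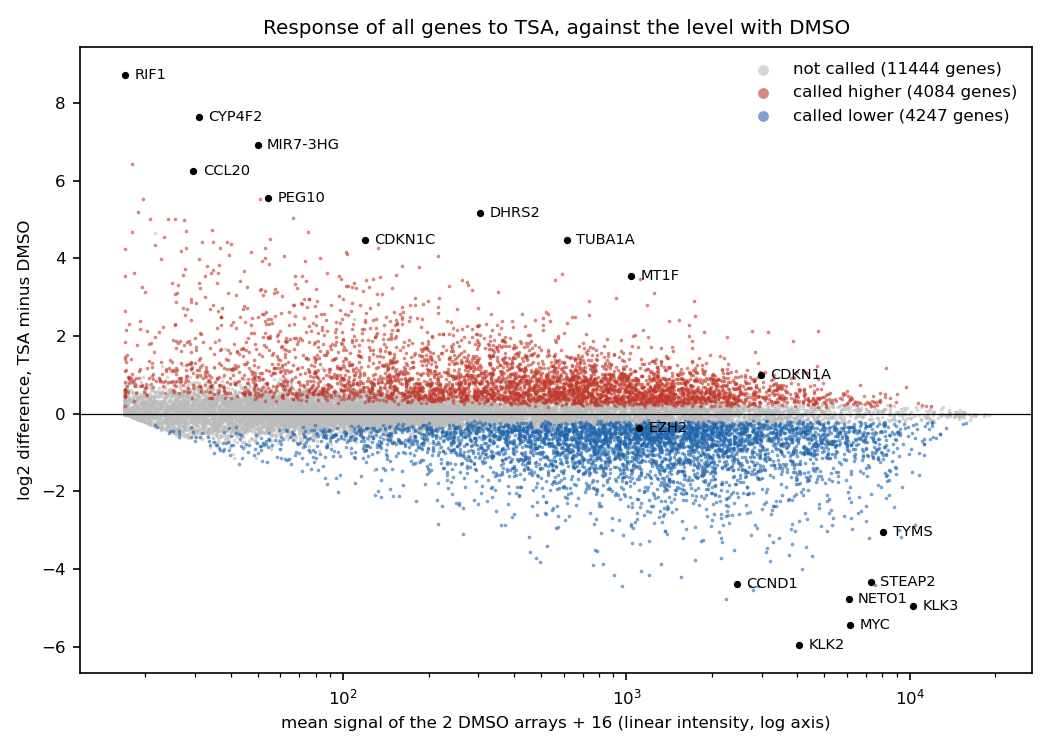
Each point is 1 of 19775 genes, with the mean DMSO signal plus 16 on a log axis and the log2 difference of TSA minus DMSO on the other axis. The 4084 genes called higher are red and the 4247 called lower are blue, with most of the largest rises at low DMSO signals.

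The shares called higher and lower differed with the level of a gene. Signals are never negative and 16 was added to each, so genes near the floor had little room to fall. The low share of falls in the lowest bins was therefore partly fixed in advance. When genes were binned by their mean signal on the 8 transfected arrays, which the comparison does not use, 10.3% of 2385 genes with a signal under 25 were called higher and 1.76% lower. Among 2574 genes between 500 and 1000 both directions were common, at 31.6% higher and 35.2% lower. Of 1422 genes at 3000 or above, 15.8% were called higher and 51.8% lower. Counts in a list of genes with high signals are therefore to be read against the shares of such genes. Protein-coding genes were called more often, 3804 higher and 3925 lower of 16516, than long non-coding RNAs, with 210 and 250 of 2657. The 2 classes were not matched for signal, so this is a description of counts.

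**Figure D2:**
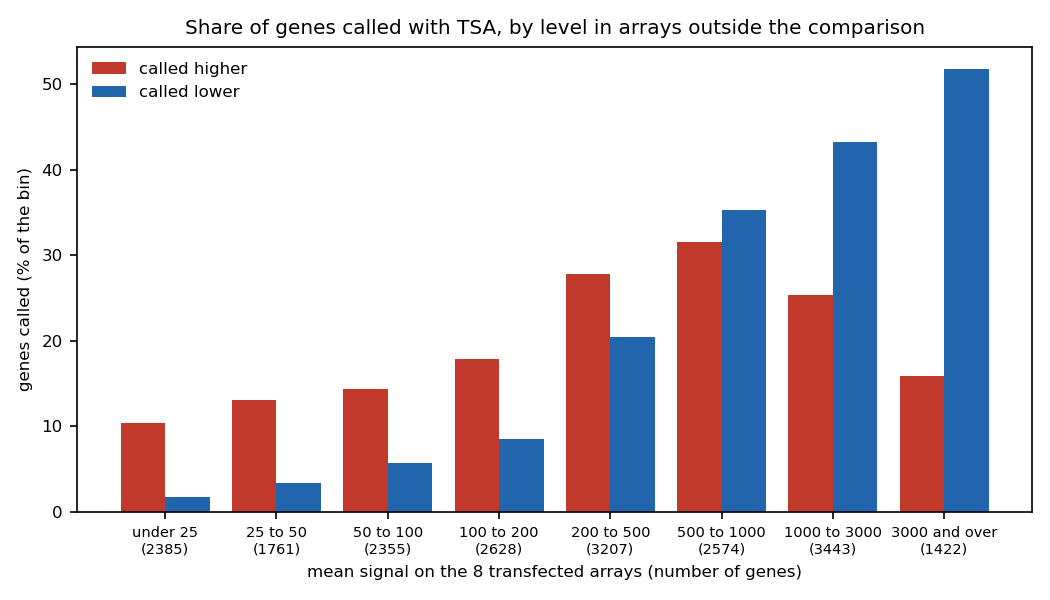
Bars give the percentage of genes called higher (red) and lower (blue) with TSA in each bin of mean signal on the 8 transfected arrays, with the number of genes in brackets. The share called lower climbs from 1.76% to 51.8% over the bins, while the share called higher peaks at 31.6% between 500 and 1000. Genes in the lowest bins had little room to fall.

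The drug's own targets came first. Of the 11 zinc-dependent HDAC genes 2 rose (18.2%) and 1 fell (9.09%), against 20.7% and 21.5% of all genes. The list's median difference was 0.10. HDAC3, the catalytic subunit of the NCoR complex, had signals of 1059 and 1215 with DMSO and 2877 and 2652 with TSA. That rise was 1.27 ± 0.13, adjusted p = 2.78e-05, and no array of one group overlapped the other. HDAC5, a class IIa enzyme, rose from 200.5 and 201 to 399.6 and 348 (0.84 ± 0.12), although its other probe set differed by only 0.25. HDAC2, a class I enzyme of the NuRD, Sin3 and CoREST complexes, fell from 4302 and 4191 to 2978 and 2931 (-0.52 ± 0.06, adjusted p = 1.13e-04), and its other probe set gave 0.19. HDAC1, which shares those complexes with HDAC2, was at 4213 and 4166 with DMSO and 4593 and 4502 with TSA, and the 95% confidence interval of -0.03 to 0.26 included 0. The other members (HDAC4, HDAC6, HDAC7, HDAC8, HDAC9, HDAC10 and HDAC11) differed by between -0.18 for HDAC7 and 0.20 for HDAC9, none of them called. Other probe sets gave -0.66 for HDAC7, 0.70 for HDAC10 and 0.92 for HDAC11, and with probe sets averaged all 3 were called (-0.42, 0.39 and 0.55). HDAC2, the only fall, was then not called (-0.17). With the probe set of highest signal on the transfected arrays HDAC5 was not called (0.25). After quantile normalization HDAC1 (0.28) and HDAC7 (-0.28) were called too. Among the 7 sirtuins, the NAD-dependent deacetylases that TSA does not block, SIRT7 (1.15 ± 0.10) and SIRT4 (1.25 ± 0.15) rose, and SIRT5 fell by 0.52.

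Subunits of the complexes that hold HDACs moved in both directions. Of 23 measured corepressor subunits 12 fell (52.2%) and 7 rose (30.4%), with a median of -0.35. The list's median DMSO signal was 1365. Among all genes at 1000 to 3000 on the transfected arrays 43.2% were called lower and 25.4% higher. Of the rises 4 were called when any 1 of the 4 arrays was left out. MTA1, a NuRD subunit, had signals of 1594 and 1616 with DMSO and 375 and 378 with TSA, a change of -2.05 ± 0.08, adjusted p = 1.01e-07. The same direction was seen for MTA3 (-1.83 ± 0.09) and CHD3 (-1.72 ± 0.10), both of NuRD. TBL1XR1 (-1.89 ± 0.09) and TBL1X (-1.42 ± 0.12), which bind HDAC3 in the NCoR complex, fell as well, though the other probe sets of TBL1XR1 ranged from -2.25 to 0.12.

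Histone acetyltransferases, the enzymes that oppose HDACs, mostly fell: 8 of 12 were lower (66.7%), 1 was higher, and the median was -0.58. The list's median DMSO signal was 1030, and 43.2% of all genes at 1000 to 3000 on the transfected arrays were called lower. NCOA2, a coactivator of nuclear receptors, had signals of 1557 and 1560.3 with DMSO and 394 and 394 with TSA, and KAT2A, the GCN5 acetyltransferase, 1589 and 1567 with DMSO and 505 and 522 with TSA. Those were falls of 1.94 and 1.59. CREBBP (-0.84 ± 0.10) and EP300 (-0.64 ± 0.12), the related broad-range acetyltransferases, fell too, as did KAT2B (-0.63 ± 0.08), KAT5 (-0.44 ± 0.08) and KAT7 (-0.82 ± 0.08). KAT8 fell (-0.53 ± 0.16) and KAT6A rose (0.30 ± 0.09) with calls that hung on single arrays. KAT8 was not called without either DMSO array (-0.56 and -0.50) or without TSA replicate 2 (-0.44), and KAT6A not without either DMSO array (0.28 and 0.31) or TSA replicate 1 (0.24). KAT6B, NCOA1 and HAT1 differed by -0.19, 0.09 and -0.01. Of 3 measured BET proteins, which read acetylated histones, BRD3 (-0.93 ± 0.09) and the testis form BRDT (-2.12 ± 0.19) fell, while BRD2 differed by 0.00.

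In the DNA methylation list 7 of 12 genes fell and 1 rose (median -0.43). DNMT1, the maintenance methyltransferase, was at 5066 and 5256 with DMSO and 3164 and 2997 with TSA, and its partner UHRF1, which recruits it to replicated DNA, at 1977 and 1866 with DMSO and 536 and 509.96 with TSA. The falls were 0.74 and 1.85 on the log2 scale, with no overlap between the groups. The demethylating dioxygenases TET1 (-0.62 ± 0.08) and TET3 (-1.76 ± 0.07) fell, as did the methyl-DNA reader ZBTB33 (-1.55 ± 0.06). TET2 (-0.65 ± 0.23) lost its call without either DMSO array (-0.56 and -0.75), without TSA replicate 2 (-0.42) and without 1 array of si-Control or si-EZH2&EZH2sr. DNMT3A (-0.24 ± 0.09) lost its call when any 1 array other than TSA replicate 2 was left out, with -0.12 without TSA replicate 1. MBD1, another methyl-DNA reader, rose by 1.07, and DNMT3L, a cofactor of DNMT3A, was called only without TSA replicate 2 (1.00, against 0.50 with all arrays).

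EZH2 itself, the subject of the study, was at 1099 and 1085 with DMSO and 854 and 824 with TSA, a difference of -0.37 ± 0.07, adjusted p = 0.0024, and with Roscovitine at 849 and 742. Of the 11 Polycomb repressive complex 2 genes 3 rose (27.3%) and 4 fell (36.4%), against 20.7% and 21.5% of all genes. JARID2, which guides the complex to DNA, rose from 699 and 695 to 1505 and 1503 (1.09 ± 0.08). MTF2 (0.74 ± 0.10) and the core subunit SUZ12 (0.29 ± 0.06) rose too, although other probe sets of SUZ12 ranged from -0.31 to 0.79. RBBP4 (-0.76 ± 0.09), RBBP7 (-0.35 ± 0.07) and AEBP2 (-0.51 ± 0.06) fell, AEBP2 with 0.21 on its other probe set and -0.15, not called, with both averaged. Of 14 Polycomb repressive complex 1 genes 5 rose, among them RYBP (0.86 ± 0.07) and the ubiquitin ligase RING1 (0.78 ± 0.09), and 6 fell, among them PCGF6 (-1.01 ± 0.11) and PCGF2 (-0.80 ± 0.09).

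**Figure D3:**
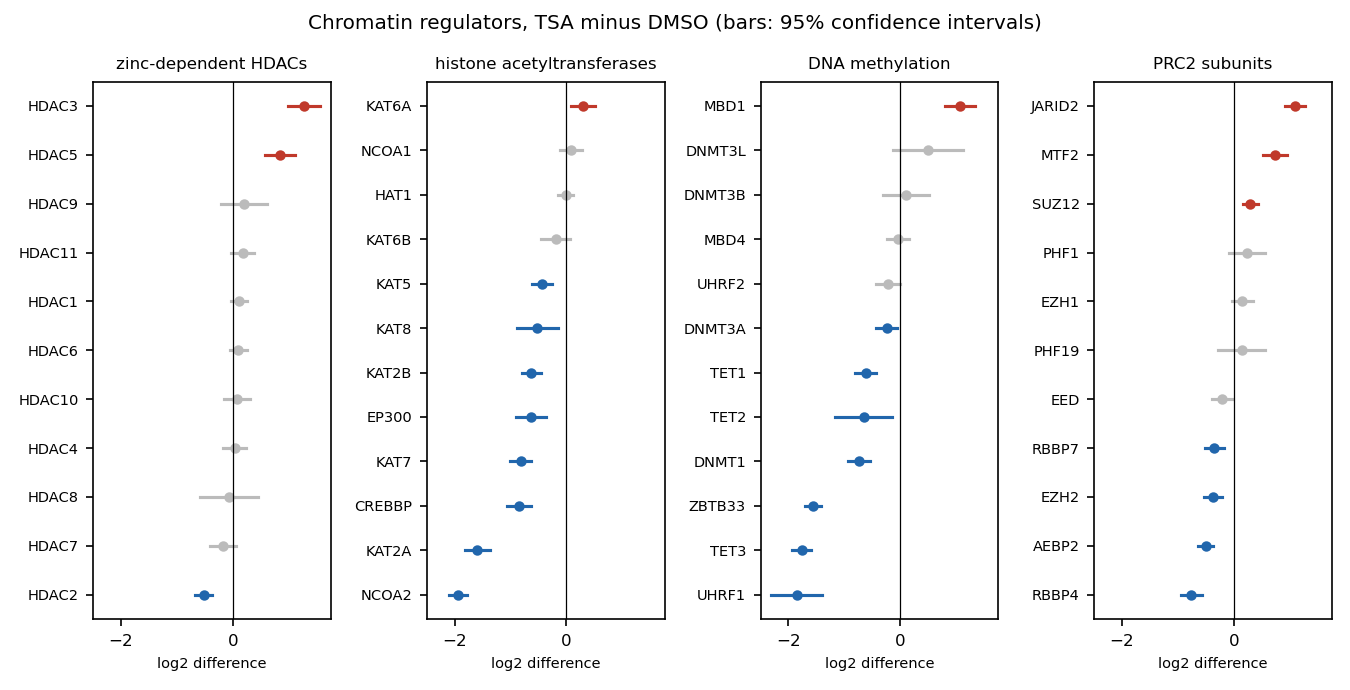
Each point is the log2 difference of TSA minus DMSO of 1 gene, with its 95% confidence interval as a bar, in 4 lists of chromatin regulators. Red genes were called higher, blue lower and grey not called. Of the acetyltransferases 8 of 12 are blue, and of the HDACs 1 of 11. The 2 lists are not matched for signal, with median DMSO signals of 1030 and 329. Of all genes at 1000 to 3000 on the transfected arrays 43.2% were called lower, and of those at 200 to 500 20.5%.

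Of 23 genes known from other cell lines to rise with HDAC inhibitors, 19 were called higher (82.6%, against 20.7% of all genes). Their median difference was 1.23. This list and that of genes known to fall were written with earlier results of these data known. Their counts are therefore no separate support. DHRS2, a mitochondrial dehydrogenase, went from 276 and 299.9 with DMSO to 10952 and 10904 with TSA, against 180.4 and 189 with Roscovitine. Its rise was 5.17 ± 0.16, adjusted p = 2.36e-08, a ratio of signals of 37.9, and its other probe set rose by 5.97. CLU (clusterin, a secreted chaperone) rose by 4.06 ± 0.09, GADD45B (a stress sensor) by 3.29 ± 0.11 and TIMP3 (a metalloproteinase inhibitor) by 3.47 ± 0.13. Of 17 genes known to fall, 14 fell (82.4%, against 21.5% of all genes) and 1 rose (median -1.40), led by CCND1, TYMS and MYC. The gene that rose was ODC1, the ornithine decarboxylase of polyamine synthesis, at 9535 and 9874 with DMSO and 15715 and 15462 with TSA (0.68 ± 0.08), and it is named because it was the only one of the list to rise.

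Metallothioneins, small cysteine-rich proteins that bind zinc and copper, rose nearly as a family: 8 of 9 measured genes were higher, with a median of 2.13. MT2A was at 4728 and 4749.7 with DMSO and 21161 and 20485 with TSA, and MT1X at 3152 and 3127 with DMSO and 13669 and 13316 with TSA. The groups lay far apart for both, with differences of 2.13 ± 0.07, adjusted p = 3.90e-08 for MT2A and 2.10 ± 0.09, adjusted p = 1.11e-07 for MT1X. MT1F (3.55 ± 0.25), MT1G (3.10 ± 0.07), MT1H (2.90 ± 0.09), MT4 (2.79 ± 0.24), MT1E (2.09 ± 0.09) and MT3 (1.29 ± 0.17) rose as well, and MT1M, which was not called, was at 8.29 and 1.75 with DMSO and 4.52 and 13.5 with TSA. These genes are close copies of each other, so their probe sets may share transcripts and the 8 rises are not 8 separate measurements.

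The promoters of MT2A and MT1X are shown because a metallothionein promoter is known to carry metal response elements, bound by the zinc sensor MTF1. Both windows run from 250 bases before to 50 after the RefSeq start on GRCh38.p14, at chr16:56608334-56608633, plus strand and chr16:56682220-56682519, plus strand, and are printed 5′ to 3′. Capitals mark the core TGCNCNC on either strand, found 8 times in MT2A and 4 times in MT1X.
MT2A: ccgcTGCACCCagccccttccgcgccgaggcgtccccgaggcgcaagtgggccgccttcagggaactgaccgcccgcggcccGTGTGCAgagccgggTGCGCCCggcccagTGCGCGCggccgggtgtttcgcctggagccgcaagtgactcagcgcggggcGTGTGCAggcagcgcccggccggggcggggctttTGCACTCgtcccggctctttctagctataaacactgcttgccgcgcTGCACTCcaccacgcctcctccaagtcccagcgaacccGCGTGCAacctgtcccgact
MT1X: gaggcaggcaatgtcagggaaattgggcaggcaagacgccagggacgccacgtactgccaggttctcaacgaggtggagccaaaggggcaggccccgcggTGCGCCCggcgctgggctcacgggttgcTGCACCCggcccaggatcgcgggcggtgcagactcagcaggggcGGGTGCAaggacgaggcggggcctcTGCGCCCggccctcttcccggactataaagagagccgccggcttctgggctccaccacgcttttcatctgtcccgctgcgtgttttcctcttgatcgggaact
This core is short: 60.8% of 15384 promoter windows of tested genes held at least 1, and all 4 metallothionein windows at hand did. The motif was chosen after the values of these genes were seen.

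Histone genes rose as a list, with 18 of 28 measured genes higher and 4 lower (median 0.86). H1-2, a linker histone, was at 1664 and 1797 with DMSO and 10260.2 and 9597 with TSA (2.51 ± 0.13). The linker histones H1-3 (3.24 ± 0.16) and H1-4 (2.34 ± 0.12) and the core histone H2AC8 (3.04 ± 0.10) rose too. MACROH2A2, a variant linked to silent chromatin, went the other way, from 873 and 867 to 84.2 and 108 (-2.99 ± 0.10, adjusted p = 3.40e-08). Histone genes are near-identical in sequence, so probe sets may read several of them.

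Of 6 measured genes for CDK inhibitors, the proteins that brake the cell cycle, 4 rose. CDKN1A (p21), the best known target of HDAC inhibitors, was at 2840.2 and 3082 with DMSO and 6114 and 5786 with TSA, and with Roscovitine at 3564 and 4069. The rise of CDKN1A was 1.00 ± 0.08, adjusted p = 8.19e-06. CDKN1C (p57) rose from 82.8 and 124 to 2711 and 2486 (4.47 ± 0.18), with other probe sets at -0.00 to 4.62. CDKN2B (p15) rose from 17 and 17.3 to 477 and 408 (3.79 ± 0.37), and CDKN2D (p19) by 1.82. CDKN2A (p16 and p14ARF) and CDKN1B (p27) fell, by 1.31 and 0.71.

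The CDKN1A promoter is shown because GC boxes bound by SP1 are known to mediate its response to HDAC inhibitors. The window is chr6:36678464-36678763, plus strand on GRCh38.p14, and capitals mark the GC box GGGCGG on either strand, which occurs 4 times, with overlapping copies next to each other.
CDKN1A: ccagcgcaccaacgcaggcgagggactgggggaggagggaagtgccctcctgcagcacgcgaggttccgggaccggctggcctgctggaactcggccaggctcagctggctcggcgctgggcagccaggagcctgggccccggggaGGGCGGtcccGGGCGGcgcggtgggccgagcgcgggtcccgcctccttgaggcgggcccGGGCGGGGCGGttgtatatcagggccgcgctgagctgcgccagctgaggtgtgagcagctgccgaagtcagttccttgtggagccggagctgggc
At least 1 such box lay in 72.7% of 3305 promoters of genes called higher, 66.7% of 3479 of genes called lower and 58.9% of all 15384. The CCAAT box was in 40.3%, 34.8% and 36.1% of these promoters, and the TATA box TATAAA in 6.6%, 5.12% and 8.76%, each counted on both strands. Median GC content was 66% in promoters of genes called higher and 63% in all, and genes called in either direction also had higher signals than all genes, so these shares describe the groups and nothing more.

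Cyclin D1, the G1 cyclin encoded by CCND1, fell from 2393 and 2493 to 107 and 94.8, a difference of -4.40 ± 0.11, adjusted p = 6.62e-09, or a ratio of 24.2. Its partner CDK4 fell from 4423 and 4638 to 1735 and 1655 (-1.41 ± 0.08). In the same list CCND3 (0.89 ± 0.12) and CCNE1 (0.45 ± 0.10) rose, and the other members were not called. Of 39 genes of S phase and DNA replication 27 fell (median -0.83). TYMS, the thymidylate synthase, went from 8064 and 8064 to 981 and 929.7 (-3.06 ± 0.08). RFC5 (-2.27 ± 0.07) of the clamp loader, the helicase subunits MCM7 (-1.55 ± 0.09) and MCM5 (-1.71 ± 0.13), and the ribonucleotide reductase RRM1 (-1.15 ± 0.08) fell as well.

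Of 37 genes of G2 and mitosis 33 fell (median -0.95). CDK1, the mitotic kinase, was at 7934 and 7846 with DMSO and 2155 and 2075 with TSA, with 6849.6 and 6919 on the Roscovitine arrays. UBE2C (-2.22 ± 0.12), which marks mitotic cyclins for destruction, HMMR (-1.72 ± 0.10), the kinase AURKB (-1.95 ± 0.13) and the topoisomerase TOP2A (-1.63 ± 0.12) fell too. Roscovitine lowered 24 of the same 37 genes, with a median of -0.69 against the same DMSO arrays, but 6 without Roscovitine replicate 2 and 12 without replicate 1. The test of TSA against Roscovitine called 26 of the 37 in either direction, against 43% of all genes; without Roscovitine replicate 2 it called 20 of the 37, against 37.7%. Of 19 genes of homologous recombination and Fanconi repair 8 fell, among them BARD1 (-2.25 ± 0.12), FANCG (-1.07 ± 0.08) and BRCA1 (-0.89 ± 0.13). These falls were 42.1% of the list, against 35.2% of all genes at 500 to 1000 on the transfected arrays. Its median DMSO signal was 605.

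MYC, the transcription factor that drives growth genes, showed one of the largest falls of the whole comparison, from 6239.9 and 6067 to 130.5 and 119. The difference was -5.45 ± 0.26, adjusted p = 2.63e-07, a ratio of 49.2, and the Roscovitine arrays stood at 5658 and 6343. Only 1 probe set measures the gene. In its network of 11 measured genes 5 fell, MYC included, and 3 when TSA replicate 2 was left out. MYCL (-0.59 ± 0.10), a MYC relative, and MNT (-0.68 ± 0.16), a MYC antagonist, stayed called, the other probe set of MNT giving 0.19, and MXD1, a repressor that competes for the same partner, rose by 0.63. The partner MAX was not called, at 2214 and 2368 with DMSO and 2544 and 2489 with TSA. Ribosome biogenesis genes, a known MYC programme, fell in 16 of 24 cases (median -0.57), with NOB1 (-1.75 ± 0.08), NOP14 (-1.58 ± 0.09), WDR43 (-1.31 ± 0.09) and NOP58 (-1.05 ± 0.08) first and nucleolin, NCL, at -0.79 ± 0.07. In contrast none of 27 measured ribosomal protein genes was called by limma, 1 of them at an unadjusted p under 0.05, and their median was -0.02.

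**Figure D4:**
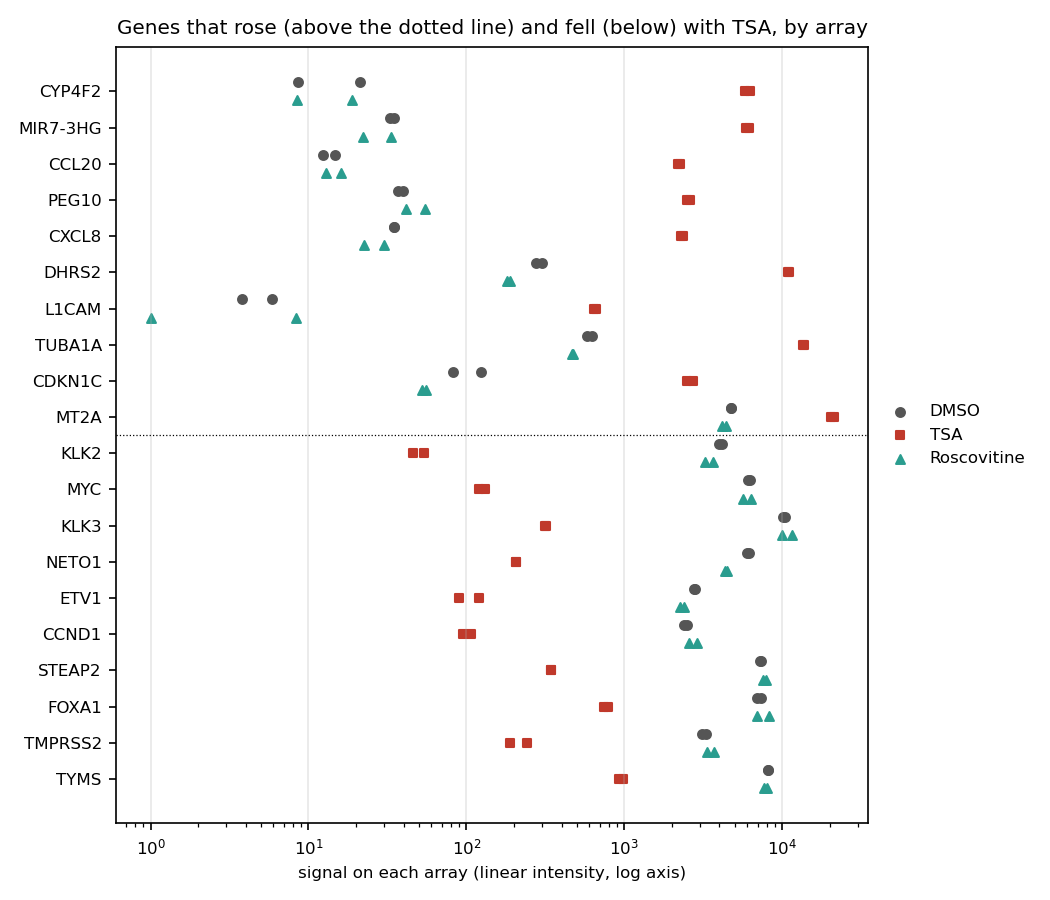
Signals of 20 genes on each of the 2 DMSO (grey circles), 2 TSA (red squares) and 2 Roscovitine (green triangles) arrays are drawn on a log axis. The TSA arrays lie to the right of all DMSO arrays for the 10 genes above the dotted line and to the left for the 10 below it, while the Roscovitine arrays lie closer to the DMSO than to the TSA arrays for all 20.

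The androgen programme of LNCaP cells fell. Of 22 measured androgen receptor targets 15 were lower and 3 higher, with a median of -1.07. KLK3, which encodes prostate-specific antigen, was at 10165 and 10368 with DMSO and 314 and 320.3 with TSA, a difference of -4.95 ± 0.18, adjusted p = 5.17e-08 and a ratio of 32.4. KLK2, the neighbouring kallikrein, went from 3962 and 4167 to 53.5 and 46.1 (-5.96 ± 0.21). Other probe sets of these kallikreins ranged from -5.51 to -0.21 and from -4.54 to 0.50, and the 2 genes are close copies, so the exact size is uncertain. The metalloreductase STEAP2 fell from 7213 and 7319 to 341 and 342 (-4.35 ± 0.06). ABCC4, a drug and nucleotide exporter, fell by 2.77, from 6949.8 and 7023 to 1014 and 1014. The exception with a small p was EAF2, an elongation factor partner, which rose from 266 and 273 to 1266 and 1269 (2.17 ± 0.08); its other probe sets gave 0.11 to 0.15.

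The promoters of KLK2 and KLK3 are shown because they fell furthest of this list and share a known androgen response element. Both windows lie on GRCh38.p14, at chr19:50873189-50873488, plus strand and chr19:50854665-50854964, plus strand, and capitals mark the element, searched as GAACA and AGTGCT with any 3 bases between, a form chosen after the values were seen.
KLK2: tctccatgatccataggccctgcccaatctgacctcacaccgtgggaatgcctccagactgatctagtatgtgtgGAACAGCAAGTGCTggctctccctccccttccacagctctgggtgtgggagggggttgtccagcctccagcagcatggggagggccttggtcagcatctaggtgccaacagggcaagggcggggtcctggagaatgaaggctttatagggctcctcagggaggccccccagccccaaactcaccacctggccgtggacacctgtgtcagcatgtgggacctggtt
KLK3: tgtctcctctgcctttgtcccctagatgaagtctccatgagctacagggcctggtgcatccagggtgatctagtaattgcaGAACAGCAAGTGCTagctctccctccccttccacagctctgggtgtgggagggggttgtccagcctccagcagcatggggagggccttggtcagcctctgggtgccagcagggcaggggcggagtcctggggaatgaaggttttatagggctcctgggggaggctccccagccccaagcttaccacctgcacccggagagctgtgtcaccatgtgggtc
Of all 15384 windows 8 held this form on either strand (0.052%), 4 of them in front of genes called lower. KLK2 and KLK3, for which the form was chosen, are among these 4, so that count was partly fixed in advance. Genes called lower held 3479 of all the windows. A match says only that the letters are present.

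Regulators of luminal identity fell alongside: 6 of 9 measured were lower and 2 higher (median -1.05). FOXA1, the pioneer factor that opens androgen receptor sites, was at 6958 and 7353 with DMSO and 793 and 739.5 with TSA (-3.20 ± 0.10, adjusted p = 2.36e-08). SPDEF (-3.02 ± 0.09), GRHL2 (-2.60 ± 0.09) and CREB3L4 (-3.12 ± 0.17) fell by similar amounts, and HOXB13 (-0.99 ± 0.14) and GATA2 (-1.05 ± 0.16) by less. SOX9 (1.24 ± 0.16) and KLF5 (0.89 ± 0.12) rose, and ERG stayed at 32.2 and 47.6 with DMSO and 42.3 and 46.5 with TSA. Among the luminal markers TMPRSS2 (-3.80 ± 0.22) and FOLH1 (-2.56 ± 0.07), which encodes prostate-specific membrane antigen, fell. Of the luminal keratins KRT8 rose by 0.93, and KRT18 was not called, at 7036 and 7469.97 with DMSO and 6725 and 6441 with TSA.

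Other large falls, by the rule of the 15 largest, took in ETV1, an ETS factor, from 2821 and 2765 to 90.3 and 121, EHF, an epithelial ETS factor, from 7506 and 7533 to 359 and 316, and NFIC from 2655 and 2794 to 122 and 97.9. Receptors were among them too: the glutamate receptor partner NETO1 (-4.79 ± 0.07), the chemokine scavenger ACKR3 (-4.78 ± 0.19), the semaphorin receptor NRP1 (-4.16 ± 0.21) and the nitric oxide-sensing cyclase subunit GUCY1A1 (-4.44 ± 0.08). PARP10 (-4.21 ± 0.09), KLHL1 (-4.44 ± 0.14) and BANK1 (-4.15 ± 0.09) complete the 15 with the kallikreins, STEAP2, MYC and CCND1. The other probe set of KLHL1 gave -0.30, those of ACKR3 -1.57 to 0.08, those of PARP10 -0.46 to 0.06 and those of NRP1 -2.25 to -0.07, so these falls were not seen on every probe set of the gene.

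Of the 15 largest rises 14 began from DMSO signals between 1 and 55.1, the exception being DHRS2. RIF1 headed them only through 1 probe set, at 1 on the 12 arrays without TSA and at 7404 and 6766 with TSA. Its 8 other probe sets differed by -1.20 to -0.01, and with the probe set of highest signal on the transfected arrays RIF1 fell, so no rise of RIF1 transcripts as a whole was measured. CYP4F2, a fatty acid and vitamin K hydroxylase of liver, went from 21.3 and 8.6 to 6211 and 5809.9 (7.64 ± 0.23, adjusted p = 1.93e-08). MIR7-3HG, the host transcript of a microRNA-7 gene, rose from 32.9 and 34.7 to 6152 and 5887, and its other probe set by 6.21. PEG10, an imprinted gene derived from a retrotransposon, rose from 39.8 and 37 to 2608 and 2482 (5.56 ± 0.17). The rest of the 15 were LINC01419 (6.44), RADX (5.20, with -0.55 on its other probe set), LOC728392 (5.03), ELOVL4, an elongase of very long fatty acids (5.02), LINC01647 (5.02), the adhesion molecule L1CAM (5.00), RAI2 (4.99), DHRS2 and 3 chemokines.

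These chemokines attract immune cells. CCL20, the ligand of CCR6, was at 14.7 and 12.4 with DMSO and 2265 and 2196 with TSA (6.25 ± 0.17, adjusted p = 1.35e-08). CXCL8 (interleukin 8), which attracts neutrophils, was at 34.7 and 34.8 with DMSO and 2339.6 and 2289 with TSA (5.52 ± 0.23, adjusted p = 1.06e-07), and its other probe set rose by 4.84. CXCL2 rose by 5.53 ± 0.53 on its leading probe set, from 3.79 and 3.41 to 917 and 862, but by 0.13 to 0.80 on the others. All Roscovitine arrays were near the DMSO level for these genes, with CCL20 at 13 and 16.1 and CXCL8 at 29.9 and 22.5.

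The promoters of CCL20 and CXCL8 are shown because both are known targets of NF-kappaB. The windows are chr2:227813592-227813891, plus strand and chr4:73740319-73740618, plus strand on GRCh38.p14, and capitals mark the only match in each to GGAANNNCC, on either strand.
CCL20: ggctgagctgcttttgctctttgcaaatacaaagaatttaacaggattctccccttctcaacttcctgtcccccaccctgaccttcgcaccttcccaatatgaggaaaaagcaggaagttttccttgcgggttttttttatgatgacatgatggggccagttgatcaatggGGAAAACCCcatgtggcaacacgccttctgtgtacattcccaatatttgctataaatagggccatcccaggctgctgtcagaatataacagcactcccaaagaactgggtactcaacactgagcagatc
CXCL8: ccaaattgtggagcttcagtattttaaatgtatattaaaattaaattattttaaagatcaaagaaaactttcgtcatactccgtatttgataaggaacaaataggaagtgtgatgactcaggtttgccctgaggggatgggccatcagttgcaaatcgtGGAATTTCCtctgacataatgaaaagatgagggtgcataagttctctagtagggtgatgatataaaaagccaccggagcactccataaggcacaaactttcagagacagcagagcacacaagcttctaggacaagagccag
That pattern, chosen after the values were seen, was in 21.8% of all 15384 windows, 23% of those of genes called higher and 22.4% of those called lower.

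Immediate early genes, which cells induce within minutes of a stimulus, were raised at 24 h: 12 of 18 were higher (median 1.32). DUSP1, a phosphatase that switches off MAP kinases, rose from 1106 and 1092 to 12594 and 12188 (3.48 ± 0.11). JUN (2.27 ± 0.14), JUND (0.80 ± 0.07), ATF3 (2.41 ± 0.23) and IER5 (1.89 ± 0.20) rose too. Other probe sets gave -0.20 to 5.20 for DUSP1, -0.12 to 1.31 for JUND and -0.03 to 2.25 for ATF3.

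Cell identity genes moved in both directions. Of 40 neuronal and neuroendocrine genes 15 rose and 2 fell (median 0.45). NEFH, the heavy neurofilament, went from 23.5 and 7.8 to 628 and 659.8 (4.43 ± 0.24), while L1CAM, SYT11 (2.49 ± 0.11) and STX1A (1.11 ± 0.07) rose and SYT4 fell from 9073 and 9315 to 1132 and 1132, a ratio of 8.12. Of 28 tubulin and cytoskeleton genes 11 rose and 5 fell. TUBA1A rose from 619.8 and 577 to 13646 and 13446 (4.47 ± 0.08, adjusted p = 3.04e-09), TUBB2B from 14.6 and 6.66 to 474 and 458 and TUBB2A by 2.00, all tubulins typical of neurons. MAP1LC3B (1.34 ± 0.06) and the actin-severing protein GSN (2.98 ± 0.22) rose as well.

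Of 23 genes of epithelial adhesion and keratins 15 fell and 4 rose (median -0.70). DSC2, a desmosomal cadherin, fell from 2101 and 2121 to 234 and 245 (-3.06 ± 0.07), and DSG2 (-1.68 ± 0.07), the splicing factor ESRP1 (-1.84 ± 0.09) and the tight junction protein TJP1 (-1.47 ± 0.08) followed. Of 34 mesenchymal and matrix genes 11 rose and 4 fell (median 0.26). VIM, vimentin, rose from 577 and 545 to 1432 and 1348 (1.29 ± 0.08) with its other probe set at -0.29, and TWIST1 rose by 1.05, while FN1, fibronectin, fell by 0.83 and COL4A2 by 1.71. Among ERBB receptors and ligands ERBB3 fell from 3284 and 3285 to 625 and 605 (-2.39 ± 0.08) and ERBB2 by 2.47, while the ligand HBEGF rose by 1.70.

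Among 21 p53 targets 12 fell and 7 rose (median -0.39), CDKN1A among the latter. GDF15, a secreted stress factor, fell from 6839 and 7187 to 1414 and 1279.8 (-2.37 ± 0.07), the nuclease AEN by 1.97 and MDM2, the ligase that degrades p53, by 1.40, though MDM2 probe sets ranged from -1.76 to 0.19. TIGAR rose by 1.26. In the BCL2 family, 3 of 6 survival genes fell: BCL2L1 (BCL-XL) from 967 and 1015 to 333 and 382, BCL2L2 by 1.56 and MCL1 by 0.49. Of 12 death-promoting members BMF (1.00 ± 0.23), BAK1 (0.68 ± 0.13) and BNIP3L (0.60 ± 0.10) rose, and BID (-1.35 ± 0.10), BOK (-0.98 ± 0.09) and BAX (-0.89 ± 0.10) fell. These rises and falls were 25% and 25% of the death-promoting list, against 20.7% and 21.5% of all genes. Of 20 death receptors, caspases and inhibitors 6 rose (30%) and 6 fell (30%). XIAP, a caspase inhibitor, fell from 2657 and 2682 to 641 and 601 (-2.08 ± 0.06), and TNFRSF10B, the TRAIL receptor DR5, rose from 2796 and 2987 to 7399 and 6822 (1.29 ± 0.10). The second TRAIL receptor, TNFRSF10A, fell by 1.07.

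Metabolic lists differed in their counts of rises and falls. Lysosome and autophagy genes rose in 18 of 28 cases and fell in 2 (median 0.65): the sialidase NEU1 went from 702 and 739 to 5718 and 5244 (2.90 ± 0.12), and SQSTM1 (1.23 ± 0.07), the calcium channel MCOLN1 (1.85 ± 0.13) and WIPI1 (3.45 ± 0.27) rose. Cholesterol genes rose in 12 of 18 cases (median 0.57), with IDI1 from 2219 and 2294 to 9131 and 8657 (1.97 ± 0.11), INSIG1 by 1.86, HMGCS1 by 1.44 and LSS by 1.06. Rises were 64.3% of the lysosome and 66.7% of the cholesterol list, against 25.4% of all genes at 1000 to 3000 on the transfected arrays. Of 14 fatty acid synthesis genes 7 fell (50%), the largest fall being that of ELOVL6 (-1.81 ± 0.08). This list's median DMSO signal was 3607, and 51.8% of all genes at 3000 or above were called lower, so its falls were near that share. In it 1 gene rose, the regulator SREBF1 (1.00 ± 0.10). FASN was not called at 5328 and 5378 with DMSO and 6239 and 5712 with TSA. In polyamine metabolism SRM (-1.68 ± 0.08), AMD1 (-1.10 ± 0.07) and SMS (-0.99 ± 0.06) fell, and SAT1, the enzyme that starts polyamine breakdown, rose by 1.07 with ODC1 and OAZ2.

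In the unfolded protein and ATF4 response 13 of 24 genes fell (54.2%, median -0.43). The list's median DMSO signal was 3191, and 51.8% of all genes at 3000 or above on the transfected arrays were called lower. The count of falls was thus near that of all genes with such signals. SLC7A11, the cystine importer, went from 3485 and 3378 to 373 and 340.1 (-3.21 ± 0.09), TRIB3 from 3906 and 4187 to 575 and 578 (-2.78 ± 0.12), and ATF4 fell by 1.17. XBP1 fell by 2.34 on its leading probe set, with 0.41 on the other. Of 20 cytosolic chaperones 7 fell and 7 rose, but only 4 rose without DMSO replicate 1 or TSA replicate 1, HSPA2 rising by 3.34 and HSPE1 falling by 1.39. Among 19 NRF2 stress genes 7 rose, or 3 to 4 without DMSO replicate 1, DMSO replicate 2 or TSA replicate 1, HMOX1 (heme oxygenase) from 272 and 246 to 2771 and 2618 (3.30 ± 0.23), and 6 fell, with KEAP1 at -1.78 ± 0.09. Rises and falls were 35% and 35% of the chaperones and 36.8% and 31.6% of the NRF2 genes, against 20.7% and 21.5% of all genes. Of 24 hypoxia and glycolysis genes 8 rose, EPAS1 by 3.26 and ALDOC by 2.15, and 3 fell, VEGFA by 0.96.

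Of 31 interferon-stimulated genes 8 rose and 9 fell, 25.8% and 29% against 20.7% and 21.5% of all genes, with IRF7 from 312 and 352 to 1753 and 1593 (2.28 ± 0.15) and IFITM3 from 2443 and 2574 to 858 and 784 (-1.59 ± 0.12). Of 15 class I antigen presentation genes 5 rose (33.3%), PSMB9 most (2.56 ± 0.34), and 5 fell (33.3%), TAPBP most (-2.08 ± 0.15). Leaving out any 1 of the 4 arrays left 2 of these falls, and leaving out either DMSO array or TSA replicate 1 left 3 of the rises. Of 27 cancer-testis antigens, which are silent in most normal tissues, 8 rose, or 5 without DMSO replicate 1 or TSA replicate 1, and 3 fell. With all arrays the rises and falls were 29.6% and 11.1% of the 27, against 20.7% and 21.5% of all genes. For 10 of the 27 the signal was under 50 on all 4 arrays. MAGEA4 rose from 309 and 332 to 733 and 748 (1.17 ± 0.09) and PAGE4 by 1.29, while PRAME fell by 0.67.

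**Figure D5:**
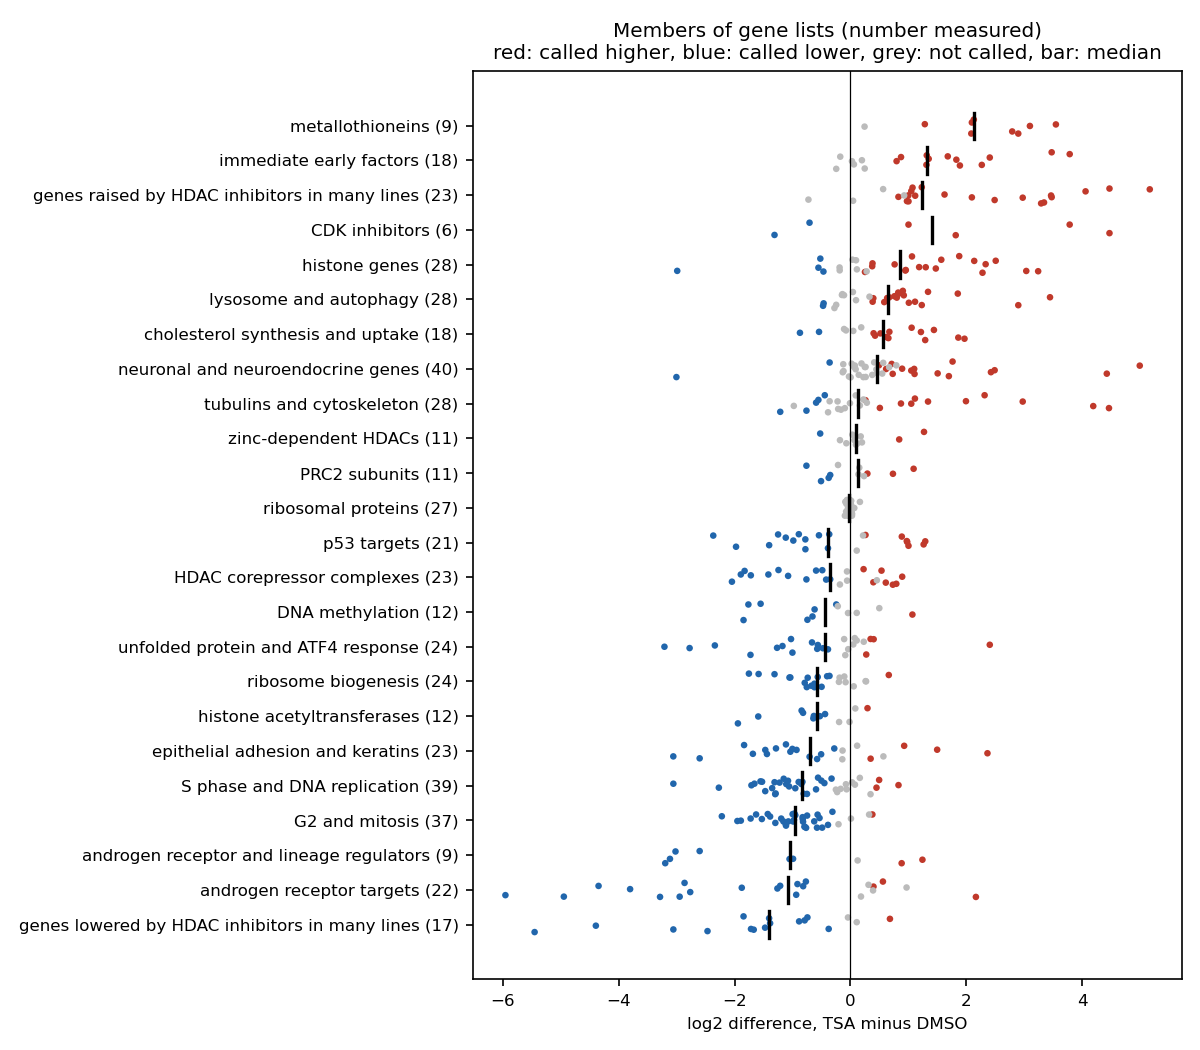
Each point is the log2 difference of TSA minus DMSO of 1 member of 24 gene lists, red when called higher, blue when called lower and grey otherwise, with the list's median as a bar and the number of measured members in brackets. Medians run from 2.13 for metallothioneins to -1.40 for genes lowered by HDAC inhibitors in many lines.

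With a limit of under 50 on both arrays of one group and at least 200 on both arrays of the other, 85 genes were switched on by TSA and 18 were switched off, or 84 and 10 with the probe sets of a gene averaged. The switched-on genes of largest TSA signal were the probe set of RIF1, MIR7-3HG, CYP4F2, PEG10, CXCL8, CCL20, LINC01419 and ENPP2, the lysophospholipase autotaxin, at 43.9 and 33.9 with DMSO and 1244 and 1195 with TSA. Switched off were KLHL1, BANK1, the transporters SLC16A14 (713 and 774 with DMSO and 36.1 and 34 with TSA) and SLC12A8 (449 and 434 with DMSO and 23.6 and 21.7 with TSA), the splicing regulator MBNL3 (493 and 521 with DMSO and 35.4 and 31.1 with TSA), RIMS1, the pseudogene HMGN2P46, and GREB1, a hormone-response gene, at 447 and 427 with DMSO and 49.5 and 22.4 with TSA. Other probe sets of GREB1 gave 0.10 to 0.20, those of RIMS1 -0.28 to -0.16 against -3.81 on its leading one, and those of MBNL3 -1.20 to -0.25 against -3.41. A GC box was in 67.2% of 67 promoters of switched-on genes, against 75.4% of the promoters of genes called higher by more than 1 on the log2 scale.

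Polycomb targets did not respond as a block. Of 57 measured developmental transcription factors bound by Polycomb repressive complex 2, 14 rose and 4 fell, 24.6% and 7.02% against 20.7% and 21.5% of all genes. The list's median DMSO signal was only 83.8, and 14 members were under 50 on all 4 arrays. Among all genes with a signal of 50 to 100 on the transfected arrays, 14.4% were called higher and 5.65% lower. The count of rises was 8 without DMSO replicate 2 and 9 without either TSA array. Of smallest p were PITX1 (-2.73 ± 0.10), TBX1 (-1.97 ± 0.09) and TBX3 (-1.32 ± 0.08) downward and ISL1 (2.60 ± 0.16) and FOXC2 (1.84 ± 0.14) upward, FOXC2 with 0.08 on its other probe set. ISL1, a factor of motor neurons and pancreas, was at 36.4 and 38.2 with DMSO and 309 and 306 with TSA. Of 28 HOX genes 1 rose, HOXB8 (0.55 ± 0.09), with -0.24 on its other probe set and 0.15, not called, with both averaged, and 5 fell, or 2 to 3 without either DMSO array or TSA replicate 2. HOXC6 fell most, from 3288 and 3189.6 to 584 and 557 (-2.47 ± 0.14). Of 19 tumour suppressors that EZH2 is known to silence, 6 rose and 5 fell, 3 of the falls called without DMSO replicate 2 or TSA replicate 2, with SFRP1, a Wnt inhibitor, at 68.4 and 61.3 with DMSO and 573 and 591 with TSA and IGFBP3 at 344 and 301 with DMSO and 1056 and 997 with TSA among the rises.

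The same arrays allowed a direct test of TSA against Roscovitine, the other drug of the experiment. It called 4231 genes higher (21.4%) and 4282 lower (21.7%), and of the genes called against DMSO 87.2% of the higher and 86.9% of the lower ones also differed from Roscovitine with the same sign. Without Roscovitine replicate 2 it called 3870 higher and 3576 lower, and the shares were 83.2% and 78.3%. Both tests use the same TSA arrays and the same spread for each gene, and Roscovitine differed little from DMSO. High shares were therefore largely fixed in advance and are no further support. Both drugs were set against the same DMSO arrays, so no overlap between their gene lists is given. The genes that follow were picked by the size of the difference between the drugs, so their adjusted p-values are no separate support. DHRS2 differed from DMSO by 5.17 with TSA and -0.60 with Roscovitine, and the difference between the drugs was 5.77 ± 0.16, adjusted p = 1.37e-08. For KLK2 the difference was -5.72 ± 0.21, adjusted p = 5.76e-08, and for CCND1 it was -4.55 ± 0.11, adjusted p = 6.34e-09. For NFIC it was -4.71 ± 0.14, adjusted p = 1.64e-08 and for EHF -4.42 ± 0.10, adjusted p = 5.97e-09, and without Roscovitine replicate 2 these 5 values were 5.80, -5.64, -4.64, -4.63 and -4.40.

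EZH2 knockdown, measured on other arrays than the TSA comparison, left EZH2 at 392.5 and 393 with si-EZH2 against 1161 and 1221 with si-Control. It was called for 140 genes upward (0.708%) and 27 downward (0.137%). Of the 140 genes raised by si-EZH2, TSA raised 47 (33.6%) and lowered 61 (43.6%), against 20.7% and 21.5% of all genes, and these are 1.15% and 1.44% of the genes TSA raised and lowered. Of the 27 genes lowered by si-EZH2, TSA raised 9 and lowered 8. No test was made of these overlaps. Both comparisons come from the same fit with a shared spread for each gene. Genes called in one are therefore more easily called in the other, in either direction, so the shares of all genes are not a matched background. The test of the TSA effect minus the si-EZH2 effect called 2961 genes above 0 (15%) and 3898 below (19.7%).

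OAT, ornithine aminotransferase, rose under both treatments, to 7361 and 6972 from 579 and 572 with TSA (3.60) and by 0.52 with si-EZH2. GDAP1, HYCC1, PDZD4, PCLO and TMEM47 also rose under both, by 2.41, 2.39, 2.39, 2.13 and 1.69 with TSA and by 0.47, 0.69, 1.13, 0.46 and 0.46 with si-EZH2. Other probe sets of PCLO gave -0.35 to 0.90 with TSA. PDZD4 rose from the floor, at 1 and 5.36 with DMSO and at 1 on both si-Control arrays. MPZL2, MBNL3, MOV10, ZFP36L1, GALNT7 and DIO1 fell with TSA and rose with si-EZH2. MBNL3 changed by -3.41 and 0.91, a difference between the effects of -4.32 ± 0.14, adjusted p = 1.01e-07. The histone genes H2AC8, H2BC5, H2BC9 and H2BC12L, together with DIO3 and PRKACA, rose with TSA and fell with si-EZH2. H2AC8 was at 188 and 194 with si-Control and 109 and 129 with si-EZH2, and its effects differed by 3.65 ± 0.15, adjusted p = 3.24e-07. DDC, JDP2, ABCA12, TMEM140, HEATR3 and PRR34-AS1 fell under both, with differences of -3.11 and -0.79 for DDC, the aromatic amino acid decarboxylase. The other probe set of DDC gave 0.03 with TSA, and that of JDP2 -0.20.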

How the data were processed

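RNA of LNCaP cells was labelled and hybridised to Affymetrix arrays by the standard protocol, per the labels. The deposited intensities are linear and never negative, and no source used here says how the authors summarised and scaled them. A second deposited table held the same values for 7022 probe sets and was not used. Probe sets were named through the platform annotation updated by RefSeq: 41091 of 54613 carry 1 symbol, 1801 several and 11721 none. Two-sided tests used limma 3.58.1 in R 4.3.3 on log2(intensity + 16), without further normalization, with 7 group means over all 14 arrays, so that all groups share 1 estimate of the spread (7 residual degrees of freedom). Adjusted p-values are Benjamini-Hochberg over 19775 genes. There was no filter on low values, 2 values above the scanner range of 65535 were set missing, and 3.57% of all values are exactly 1. The number of arrays limits the precision. In simulated data with 2 arrays per group, the TSA comparison recovered 18 of 50 genes changed by 0.5 on the log2 scale, 31 of 50 changed by 1 and 49 of 50 changed by 2, and 10 of 19575 unchanged genes were called.

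Members and gene lists were chosen with earlier results of these data known, and the lists were written from general knowledge. Named genes are the 15 largest rises and falls with a mean signal of at least 100 and no overlap between groups, up to 5 members of each list by smallest p (all members of lists of up to 15), all zinc-dependent HDACs and EZH2, 8 genes switched on and off by largest signal, and the largest changes against Roscovitine and beside si-EZH2. Promoters shown for MT1X, MT2A and CXCL8 were picked after values were seen, and those of RIF1, CYP4F2, MIR7-3HG, NETO1 and ETV1, which the rule also named, are left out. Replicate numbers were not taken to pair the arrays, since not every pair of groups correlated: deviations of same-numbered arrays correlated at -0.01 (DMSO and TSA), -0.10 (TSA and Roscovitine) and 0.40 (DMSO and Roscovitine) over 9888 genes, and at 0.33 and 0.77 for si-EZH2&T350Asr with DMSO and with Roscovitine. Alternatives changed the scaling, pseudocount, filter, probe-set choice, arrays in the fit and variance model.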

Additional observations from a re-analysis of the deposited data

Results flagged for a closer look

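The probe sets that carry several gene symbols or none take no part in the comparisons above, and they also responded. Of 13522 such probe sets, limma called 1012 (7.48%) higher and 969 (7.17%) lower with TSA than with DMSO, and 381 and 362 of them changed by more than 1 on the log2 scale.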

How the results depend on the processing

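Counts of higher and lower genes were 4373 and 4331 after quantile normalization, 3823 and 4648 with every array at the same median, 3952 and 4208 with 1 added to the signal and 4225 and 4298 with 64, and 4466 and 4482 with the DMSO and TSA arrays alone. Averaging the probe sets of a gene gave 4041 and 3883, of which 3486 and 3583 were the same genes, and 10 genes switched off in place of 18. Testing each of the 41091 probe sets called 15404 (7478 higher, 7926 lower, of them 2415 and 2598 by more than 1), 15939 against Roscovitine (7868 and 8071), 12250 in the difference from si-EZH2 (5221 and 7029), and 197 switched (153 on, 44 off). Keeping only genes with a mean signal at or above the median left 2997 rises and 3932 falls, of them 669 and 1249 by more than 1. The share of genes at 3000 or above called lower, 51.8%, became 47.1% after quantile normalization, 55.8% at the same median, 54.6% among genes with higher signals and 55.2% with an intensity trend. The share of raised genes with a GC box, 72.7%, became 75.4% among genes with higher signals and 71.1% with the DMSO and TSA arrays alone.

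Leaving out 1 array at a time gave 7011 to 8659 called genes (3266 to 4277 higher, 3603 to 4382 lower; 1235 to 1337 and 1336 to 1449 by more than 1), 7284 to 8873 against Roscovitine (3468 to 4404 and 3564 to 4469), 5846 to 7208 in the difference from si-EZH2 (2435 to 3180 and 3345 to 4028), 111 to 121 switched genes (88 to 99 on, 20 to 23 off), 45.5% to 52.3% of the genes at 3000 or above lower, and 72% to 73.8% of raised genes with a GC box. With the replicate number as a block, 8285 genes were called (4057 and 4228), 8520 against Roscovitine and 6813 in the difference from si-EZH2, and not every pair of groups correlated, so the numbers were not taken to pair the arrays. Without Roscovitine replicate 2 and si-EZH2&T350Asr replicate 2 the counts were 9095 (4528 and 4567), 8016 against Roscovitine (4186 and 3830) and 7632 in the difference from si-EZH2 (3428 and 4204). A choice of probe sets by the transfected arrays, added after seeing the data, called 4042 and 4259 and reversed RIF1 (-0.29) and RADX (-0.55, not called). Signals near background limit what can be read for low genes, and the causes of these changes were not tested.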

Other observations

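The called genes were spread over the genome. Over the autosomes and the X chromosome, the share of genes called higher ran from 18.5% on chromosome 17 to 24.1% on chromosome 14, and the share called lower from 17.9% on chromosome 7 to 26% on chromosome 15.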
